A study of Mus musculus with 18 samples.

Results

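The transcripts described here encode the enzymes that place or remove methyl groups on histone lysines, remove acetyl groups from histones, and methylate or oxidise cytosine in DNA. They were chosen by name as protein-coding mouse genes whose symbols begin with Kdm, Kmt, Setd or Hdac and a number, together with the Tet, Dnmt and Ezh genes. The rule took 55 of the 48023 genes in the count table, and 6 further genes with matching symbols were left out as pseudogenes or antisense transcripts. The cells were immortalized murine brown preadipocytes, an undifferentiated precursor line of brown fat that the study made with SV40 T antigen, and RNA-seq was performed after 4, 8 or 24 h of treatment with vehicle or FGF6, a paracrine fibroblast growth factor. Each of the 6 groups held 3 libraries, 18 in all, and both arms were the same line, kept in high-glucose DMEM with serum. The sources used here do not say whether the 3 libraries of a group came from separate cultures, so p-values measure only the spread between these libraries, which may be technical.

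Methylation of histone H3 at lysine 4 and acetylation of histone tails are found at active promoters and enhancers, while trimethylation at lysine 9 or lysine 27 accompanies silencing. DNA methyltransferases add methyl groups to cytosine and TET dioxygenases oxidise them, which leads to their removal. Several of these enzymes, among them deacetylases and H3K9 demethylases, are known regulators of thermogenic genes in brown fat.

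FGF6 was followed by changes in most of these transcripts, in both directions. Of the 55 genes, 52 had enough counts to be tested, and Dnmt3c, Kdm4d and Kdm5d, with at most 3, 12 and 1 counts in any library, did not. At 4 h, 23 genes were higher with FGF6 (44.2% of those tested, against 28.6% of all 15071 genes tested) and 18 were lower (34.6% against 34.2%). At 8 h, 17 were higher (32.7% against 32.4%) and 24 lower (46.2% against 38.4%), and at 24 h, 21 were higher (40.4% against 35.9%) and 22 lower (42.3% against 37.9%). These calls are at an adjusted p (FDR) under 0.05 in edgeR's quasi-likelihood test. Lack of overlap between groups, mentioned for single genes below, was a condition for naming most of them and adds no support to their calls. The share of all genes without overlap was not computed. Except for the increases at 4 h, the shares were within 8 percentage points of those over all genes, and no result about the enzymes as a group is drawn from them. The median log2 fold change was 0.04, -0.09 and 0.01 at 4, 8 and 24 h, beside -0.0482, -0.0502 and -0.0218 over all genes tested. All tested enzyme genes but Hdac9 had at least 10 counts in every library, while many of the other genes tested had fewer. In a fit of the 12178 genes with that many counts, 35.1% of all genes were higher and 35.6% lower at 4 h. At 8 h the shares were 37.8% and 40%, and at 24 h 40.1% and 39.7%. The share of increases at 4 h moved with the scaling, for the enzyme genes and for all genes. With library size alone, 13 genes were higher (25% against 21.5% of all genes) and 25 lower (48.1% against 43.1%). With upper-quartile factors 18 were higher (34.6% against 24.7%) and 22 lower (42.3% against 39.1%). Library size alone moved the median of all genes at 4 h by -0.102, to -0.15.

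About as many of these genes as of all genes held one direction at every time, 26.9% lower against 23% and 23.1% higher against 20.4%, so their number is not a result about the enzymes. The 14 genes lower at all 3 times were Ezh1, Hdac5, Hdac7, Hdac8, Hdac10, Hdac11, Kdm3b, Kdm4b, Kdm5c, Kmt2c, Kmt5c, Setd1b, Setd7 and Tet1. The 12 genes higher at all 3 times were Hdac2, Hdac6, Kdm1a, Kdm8, Kmt2a, Kmt2d, Kmt2e, Kmt5a, Setd1a, Setd3, Setd4 and Setd6. Each direction held both writers and erasers. A further 9 genes were called in opposite directions at different times (17.3%, against 8.19% of all genes), and Kdm1b, Kdm2b and Kmt2b were called at none (5.77% against 12.1%). Some of the opposite calls (for Hdac1, Kdm5b, Setd5, Tet2 and Tet3) were lost under alternatives described below. The shares of all genes include many genes with few counts. They were not computed among genes with at least 10 counts in every library, so no result about the enzymes is drawn from these numbers either. The time points share no libraries, but the 3 comparisons were fitted with 1 estimate of the spread.

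**Figure D1:**
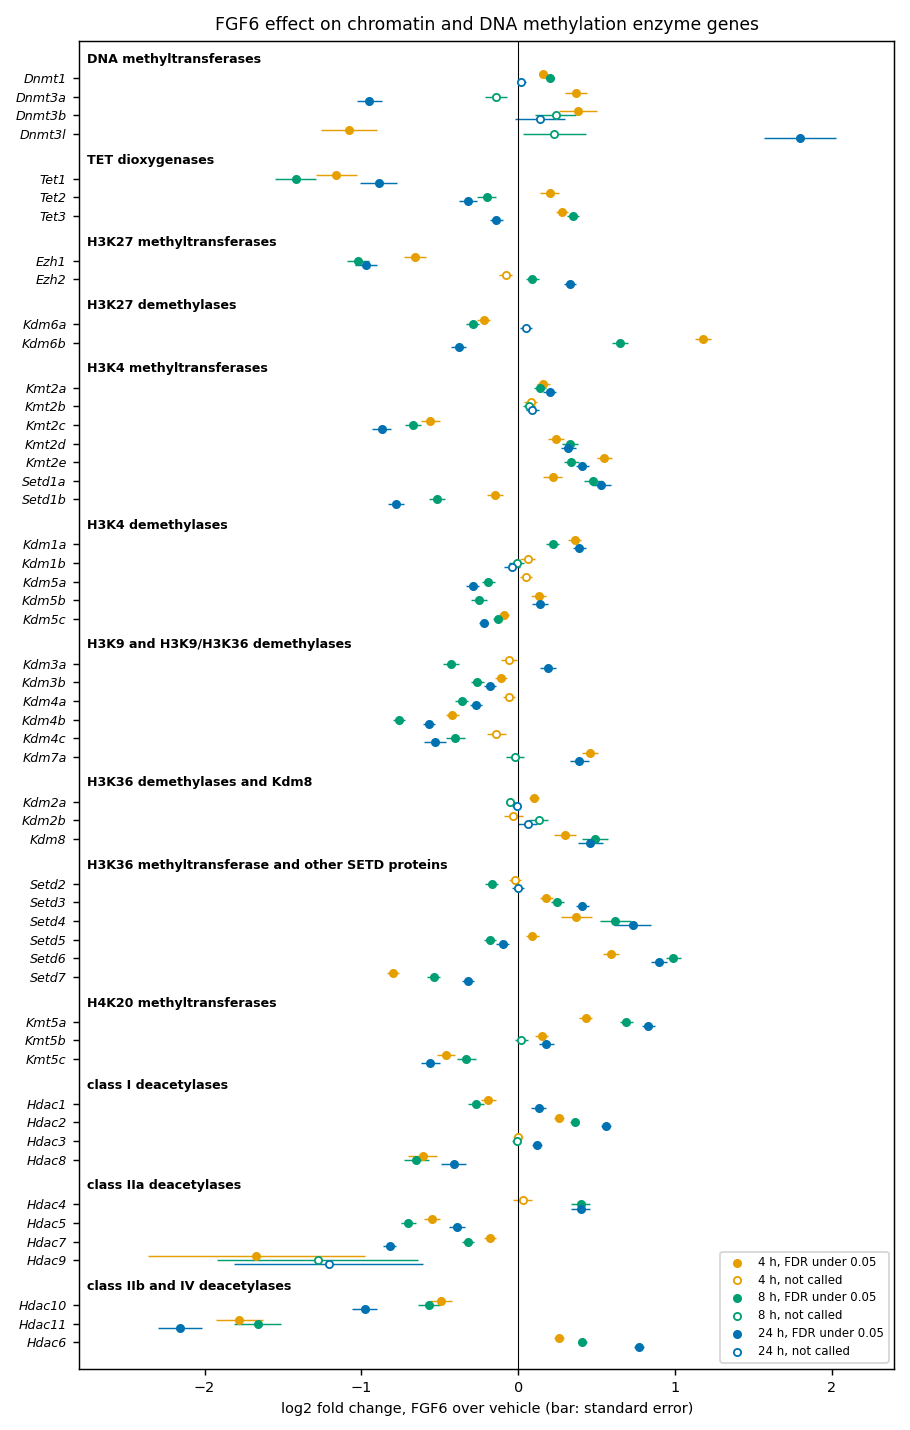
Log2 fold change of FGF6 over vehicle (x axis) for the 52 tested genes (y axis, grouped by enzyme class) at 4, 8 and 24 h, with the standard error as a bar and open circles for genes not called. Hdac11 lies farthest to the left at each time (-1.78, -1.66 and -2.16), and Kdm6b, at 1.18, is the highest at 4 h.

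Library totals ranged from 24327816 to 33471980 counts. CPM, used below for levels, is the count of a gene scaled to a common library total, the normalised total of the genes kept, and 3 counts, taken as the floor, correspond to 0.0905 to 0.126 CPM (counting error only). The identity of the cells was checked with marker genes. Pdgfra, Pdgfrb and Col1a1 were abundant, Dlk1 had no count in any library, the brown fat genes Ebf2 and Prdm16 were present, and Zic1 and Cidea had at most 4 and 1 counts. Ucp1, the uncoupling protein of brown fat, had no count in any group but FGF6 at 24 h, at 0.739 ± 0.158 CPM (SD, n = 3). Of the 4 leukocyte genes, Ptprc, Adgre1 and Itgam had at most 2, 2 and 3 counts, while the mean of Cd68 was 11.1 CPM in vehicle libraries and 16.5 CPM in FGF6 libraries at 4 h, and 5.83 and 3.24 CPM at 24 h. The summed level of the 4 myogenic genes ranged from 5.74 to 6.73 CPM with vehicle and from 1.6 to 2.13 CPM with FGF6 at 24 h. That of the 4 endothelial genes was 0.965 to 1.3 CPM with vehicle and 3.71 to 5.65 CPM with FGF6. These markers, low as they were, thus moved with treatment, and so did those of preadipocytes. The summed level of the 7 preadipocyte markers, 6 of them above the floor, ranged from 4279.2 to 4605.1 CPM in vehicle and from 780.7 to 836.3 with FGF6 at 24 h, and that of the 6 mature adipocyte markers from 155.7 to 178.2 CPM and from 63.4 to 70.1 CPM. Most of the preadipocyte sum was Col1a1, whose mean was 3106.8 CPM without and 443.3 CPM with FGF6 at 24 h. Pdgfrb was lower with FGF6 as well, at 692.6 and 133.7 CPM. So were Pdgfra, at 280.5 and 91.5 CPM, and Ly6a, at 242.6 and 32.3 CPM. Thy1 was at 63.6 and 55.7 CPM, and Cd34 went the other way, at 16.5 and 43 CPM. Fabp4 made up nearly all of the mature adipocyte sum. Its 24 h mean was 66.9 CPM under FGF6, against 160.1 CPM in the controls. The other mature adipocyte markers were low even in these controls. Cidec averaged 4.32 CPM there, Plin1 0.864, Adipoq 0.612 and Retn 0.0948, and Lep had no count in any library. Of 20 cell cycle genes, 5 were higher (25%, against 28.6% of all genes) and 12 lower (60% against 34.2%) at 4 h. At 8 h, 8 were higher (40% against 32.4%) and 10 lower (50% against 38.4%). At 24 h, 15 were higher (75% against 35.9%) and 2 lower (10% against 37.9%). What part these shifts had in the results below was not tested, and fewer cells of a kind and less RNA per cell cannot be told apart in bulk samples.

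Vehicle library 3 at 24 h stood apart from its partners. The chi-square per degree of freedom over genes was 37.9 and 41.3 against vehicle libraries 1 and 2, beside 2.44 to 7.63 for the other pairs within groups. Without the 8 genes that differed most, chosen after their values were seen, it was 4.98 and 3.1. Among the 8 were the rRNA gene CT010467.1, with 251704 counts against 4232 and 4680, and the mitochondrial rRNA genes mt-Rnr1 and mt-Rnr2. Together the 8 took 1.95% of the counts of that library and at most 0.165% of any other. Without it, 22 of the enzyme genes were higher and 21 lower at 24 h. Of 24 single values at 24 h or between 4 and 24 h, 23 kept their direction and call without this library, and the exception was Setd5 at 24 h. The values that moved by more than 0.15 were those of Dnmt3l, to 2.15 at 24 h and to 3.21 for the difference of effects between 4 and 24 h.

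The largest increase at 4 h was that of Kdm6b, which encodes the JmjC demethylase JMJD3 that removes methyl groups from H3K27. At 4 h, its level was 43.7, 44.3 and 38.7 CPM in the vehicle libraries and 96.8, 95 and 96 CPM in the FGF6 libraries. Every FGF6 library was more than 2 times as high as any vehicle library, with a log2 fold change of 1.18 ± 0.05 (SE) and an adjusted p of 2.62e-16. At 8 h, it was 35.3, 34.2 and 31.9 CPM with vehicle and 54.4, 51.5 and 53.7 CPM with FGF6, still without overlap (log2 fold change 0.65 ± 0.05, adjusted p = 5.45e-11). At 24 h the order had turned. The vehicle libraries held 50.9, 53.6 and 47.9 CPM and the FGF6 libraries 37.2, 39 and 40.8 CPM, a log2 fold change of -0.38 ± 0.05 (adjusted p = 5.43e-07). The effect at 24 h differed from that at 4 h by -1.57 ± 0.07 on the log2 scale (adjusted p = 3.28e-15). Of the 6954 exonic bases of Kdm6b, 286 are shared with the antisense gene Kdm6bos, and the strand setting of the counting is not given in the sources used here. Kdm6a, the X-linked demethylase UTX of the same mark, moved the other way and less. It fell by 0.22 and 0.29 on the log2 scale at 4 and 8 h (adjusted p = 6.42e-05 and 1.05e-06), and at 24 h its log2 fold change was 0.05 (adjusted p = 0.289).

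The pair of enzymes that write H3K27 methylation, the catalytic subunits of Polycomb repressive complex 2, parted. Ezh1, the form known from resting and differentiated cells, was lower at every time. It was 19.8, 21 and 21 CPM in vehicle and 14.1, 12.5 and 12.6 CPM with FGF6 at 4 h. At 8 h the vehicle libraries held 26.5, 26.3 and 28.7 CPM and the FGF6 libraries 13.7, 13.5 and 12.7 CPM, and at 24 h 26.3, 29.5 and 32.3 CPM stood against 15.7, 14.6 and 14.6 CPM. The groups did not overlap at any time, which the choice of genes given in full required. The log2 fold changes were -0.66 ± 0.07, -1.02 ± 0.07 and -0.97 ± 0.07 (adjusted p = 1.8e-08, 1.61e-12 and 2.85e-12). Ezh2, the form known from dividing cells, was not called at 4 h (-0.08 ± 0.04, adjusted p = 0.0747) and was higher at 8 h (0.09 ± 0.04, adjusted p = 0.0277) and 24 h (0.33 ± 0.04, adjusted p = 2.48e-08). At 24 h, Ezh2 was 84.7, 80.6 and 86.9 CPM with vehicle and 103.3, 107.8 and 104.6 CPM with FGF6. At that time 15 of 20 cell cycle genes were also higher. Whether the change of Ezh2 was tied to theirs was not tested. Per kb of exons, Ezh2 was the more abundant in every library. Its ratio to Ezh1 was 3.21 ± 0.331 (SD, n = 3) with vehicle and 7.85 ± 0.476 (SD, n = 3) with FGF6 at 24 h. Such a ratio within a library does not depend on the scaling between libraries. Of the 8 other PRC2 subunits and cofactors listed, 4, 4 and 5 were higher at 4, 8 and 24 h and 2 were lower each time. The shares higher were 50%, 50% and 62.5%, against 28.6%, 32.4% and 35.9% of all genes. The share lower was 25%, against 34.2%, 38.4% and 37.9%. Phf1 and Phf19, accessory subunits, were the lower ones at each time, and Suz12 and Mtf2 were among those higher at each time.

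Ezh1 and Ezh2 are shown by their promoters because the related genes moved apart. The windows run from 250 bases before to 30 bases after the transcription start given by RefSeq on GRCm38.p6, at chr11:101226434-101226713, minus strand, and at chr6:47595001-47595280, minus strand. They read 5′ to 3′ on the strand of the gene, and capitals mark the matches described after them.
Ezh1: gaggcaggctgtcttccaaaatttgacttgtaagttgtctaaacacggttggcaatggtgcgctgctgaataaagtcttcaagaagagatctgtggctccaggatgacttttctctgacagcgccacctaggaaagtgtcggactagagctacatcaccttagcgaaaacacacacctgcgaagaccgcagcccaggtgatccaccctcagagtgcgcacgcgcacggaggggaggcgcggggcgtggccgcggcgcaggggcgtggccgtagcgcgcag
Ezh2: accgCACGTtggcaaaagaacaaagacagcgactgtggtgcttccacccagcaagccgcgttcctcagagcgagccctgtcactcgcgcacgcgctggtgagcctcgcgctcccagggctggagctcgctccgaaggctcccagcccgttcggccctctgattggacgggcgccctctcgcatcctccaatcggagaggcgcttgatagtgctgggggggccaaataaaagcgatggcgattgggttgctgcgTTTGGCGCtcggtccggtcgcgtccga
The Ezh2 window holds TTTGGCGC, 1 of the forms of the E2F motif searched (the other was TTTCCCGC), starting at base 4 after the start of transcription, and the hypoxia core ACGTG near its upstream end. The Ezh1 window held none of the motifs searched. TTTGGCGC, on either strand, is found in 0.514% of all 32851 promoter windows of 300 bases and in 0.888% of the windows of tested genes. It is in 2 of the 63 windows that belong to these enzymes, the other being a window of Dnmt1. A match describes the letters only.

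Among the enzymes of DNA methylation, Tet1 was lower at every time. At 4 h, it was 10.1, 8.59 and 8.51 CPM with vehicle and 4.4, 3.38 and 4.51 CPM with FGF6. The 8 h values were 9.37, 8.61 and 9.38 CPM against 3.06, 4.27 and 2.84 CPM, and at 24 h 10.7, 10.2 and 9.08 CPM against 5.22, 5.04 and 5.95 CPM. The highest FGF6 library stayed below the lowest vehicle library at each time. The log2 fold changes were -1.16 ± 0.13, -1.42 ± 0.13 and -0.89 ± 0.12 (adjusted p = 1.74e-08, 4.87e-10 and 3.79e-07). Tet2 and Tet3, which oxidise 5-methylcytosine as Tet1 does and were more abundant per kb, were higher first and lower later. Tet2 was higher at 4 h (log2 fold change 0.20, adjusted p = 0.00488) and lower at 8 h (-0.20, adjusted p = 0.00512) and 24 h (-0.32, adjusted p = 6.64e-05), although with library size alone its value at 4 h was 0.10 (adjusted p = 0.162). Tet3 was higher at 4 and 8 h (0.28 and 0.35, adjusted p = 4.22e-06 and 1.34e-07) and lower at 24 h (-0.14, adjusted p = 0.00583). The decrease of Tet3 at 24 h was small. At that time, Tet3 was 81.9, 84.7 and 77 CPM with vehicle and 73, 76.1 and 71.5 CPM with FGF6. It was no longer called without vehicle library 1 (-0.10, adjusted p = 0.0992) or 2 (-0.07, adjusted p = 0.221) or FGF6 library 1 (-0.10, adjusted p = 0.108) or 3 (-0.08, adjusted p = 0.158). In those fits the median of all genes also moved, by 0.0321 to 0.0444. All 3 TET genes were thus called lower at 24 h, and only Tet1 at every time.

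The Tet1 promoter, the window of the TET gene with the largest decrease, lies at chr10:62887295-62887574, minus strand (GRCm38.p6, RefSeq) and held none of the motifs searched.
Tet1: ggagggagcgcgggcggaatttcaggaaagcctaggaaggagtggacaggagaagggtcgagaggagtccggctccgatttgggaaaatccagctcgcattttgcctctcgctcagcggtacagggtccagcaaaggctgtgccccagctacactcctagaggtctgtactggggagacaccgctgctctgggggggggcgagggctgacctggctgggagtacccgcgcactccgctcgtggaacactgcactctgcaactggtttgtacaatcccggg
It holds 17 CG dinucleotides over the 300 bases searched, with 61.7% G or C.

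The DNA methyltransferases did not move as a group. Dnmt1, the maintenance enzyme that copies methylation after replication and the most abundant of the 55 genes per kb of exons with vehicle at 4 h, was higher at 4 and 8 h (log2 fold change 0.16 and 0.20, adjusted p = 2.82e-05 and 5.94e-07), and at 24 h its log2 fold change was 0.02 (adjusted p = 0.606). Dnmt3a, a de novo methyltransferase, was 26.1, 28.3 and 26.9 CPM with vehicle and 33.7, 37.7 and 33.1 CPM with FGF6 at 4 h (log2 fold change 0.37 ± 0.07, adjusted p = 4.4e-05). At 24 h it was 18, 20.6 and 20.5 CPM with vehicle and 10.3, 11.4 and 8.99 CPM with FGF6 (-0.95 ± 0.08, adjusted p = 1.41e-10). It thus went from above to below the control without overlap at either time, and the effects differed by -1.31 ± 0.11 (adjusted p = 1.28e-10). Dnmt3b, the other de novo enzyme, was higher at 4 h only by this test (0.38 ± 0.12, adjusted p = 0.01), from 7.33, 6.52 and 7.88 CPM with vehicle to 9.54, 9.43 and 9.18 CPM with FGF6. That call was lost without vehicle library 2 (0.30, adjusted p = 0.0625) and with library size alone (0.27, adjusted p = 0.0575).

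Dnmt3l, which encodes a partner of the de novo enzymes without catalytic activity of its own, took the opposite course to Dnmt3a. At 4 h, it was 4.83, 5.38 and 4.64 CPM with vehicle and 2.96, 1.91 and 2.19 CPM with FGF6 (log2 fold change -1.08 ± 0.18, adjusted p = 9.41e-06). At 24 h, it was 0.806, 0.543 and 1.22 CPM with vehicle and 2.95, 2.93 and 2.79 CPM with FGF6 (1.80 ± 0.23, adjusted p = 1.12e-07). This was the largest difference of effects between 4 and 24 h, 2.88 ± 0.29 on the log2 scale (adjusted p = 5.72e-09). Most of the movement was in the control. The vehicle mean fell from 4.95 CPM at 4 h to 0.856 CPM at 24 h (-2.58 ± 0.21, adjusted p = 1.04e-10), while the FGF6 libraries lay between 1.91 and 2.96 CPM at all times. Of the 9 cofactors of DNA methylation listed, Uhrf1, which brings Dnmt1 to replicated DNA, was higher at all 3 times (0.13, 0.39 and 0.25, adjusted p = 0.000811, 2.07e-11 and 8.55e-08). Gadd45b, linked to active demethylation, was lower at all 3 times (-0.38, -1.02 and -1.69, adjusted p = 2.31e-07, 3.08e-15 and 1.02e-19). Its relative Gadd45a was not called at 4 and 8 h and was higher at 24 h (0.58, adjusted p = 0.000885). At 4, 8 and 24 h, 44.4%, 33.3% and 55.6% of the 9 were higher, against 28.6%, 32.4% and 35.9% of all genes. The shares lower were 33.3%, 33.3% and 22.2%, against 34.2%, 38.4% and 37.9%.

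**Figure D2:**
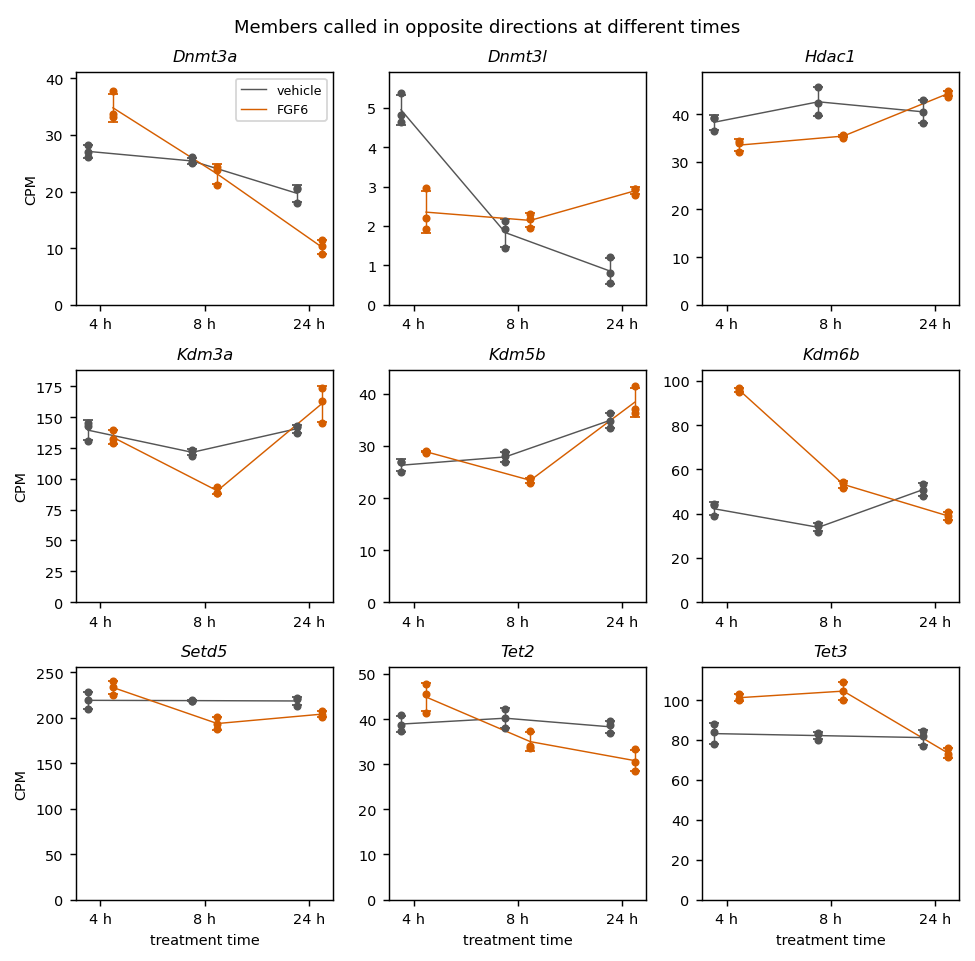
CPM (y axis) of the 9 genes called in opposite directions at different treatment times (x axis, 4, 8 and 24 h), with a point for each library and the mean ± SD of 3 libraries for vehicle (grey) and FGF6 (orange). Kdm6b and Dnmt3a start above the vehicle libraries and end below them, and the vehicle mean of Dnmt3l falls from 4.95 to 0.856 CPM.

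The H3K4 methyltransferases were split in the same way at each time. Of the 7 genes, Kmt2a, Kmt2d, Kmt2e and Setd1a were higher and Kmt2c and Setd1b lower at 4, 8 and 24 h, and Kmt2b was not called (0.08, 0.07 and 0.09, adjusted p = 0.0662, 0.118 and 0.0514). Kmt2c and Kmt2d encode the related enzymes MLL3 and MLL4, which place monomethylation at enhancers. Kmt2c at 8 h was 60.9, 57.9 and 60.1 CPM with vehicle and 37.1, 36.5 and 38.6 CPM with FGF6. At 24 h it was 58, 60.2 and 55.1 CPM with vehicle and 32, 31.1 and 31.5 CPM with FGF6. Its log2 fold changes were -0.56 ± 0.06, -0.67 ± 0.05 and -0.87 ± 0.06 at 4, 8 and 24 h (adjusted p = 3.69e-09, 4.21e-11 and 2.98e-13), without overlap at any time. Kmt2d at 24 h was 137.5, 136.2 and 124.7 CPM with vehicle and 168.4, 168.4 and 162.3 CPM with FGF6. It rose by 0.24, 0.33 and 0.32 on the log2 scale (adjusted p = 0.000185, 1.71e-06 and 2.34e-06). The ratio of Kmt2d to Kmt2c per kb went from 2.34 ± 0.0638 (SD, n = 3) with vehicle to 5.37 ± 0.135 (SD, n = 3) with FGF6 at 24 h.

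Setd1a and Setd1b, the related catalytic subunits of the COMPASS complexes that trimethylate H3K4 at promoters, parted likewise. Setd1a was 44.6, 38.2 and 40 CPM with vehicle and 56.7, 57.1 and 57.5 CPM with FGF6 at 8 h, and its log2 fold changes were 0.22 ± 0.06, 0.48 ± 0.06 and 0.53 ± 0.06 (adjusted p = 0.00215, 6.87e-08 and 1.44e-08). Setd1b was lower, by a margin that grew from 4 to 24 h (difference of effects -0.64 ± 0.07, adjusted p = 7.58e-08). At 4 h the groups overlapped, at 75.8, 79.8 and 70 CPM with vehicle and 66.2, 70.4 and 67.2 CPM with FGF6. At 24 h they did not, at 75.2, 75.6 and 71.6 CPM against 43, 46 and 40.5 CPM. Its log2 fold changes were -0.15 ± 0.05, -0.52 ± 0.05 and -0.78 ± 0.05 (adjusted p = 0.016, 2.73e-09 and 1.16e-12). The value of Setd1a is uncertain, as 3523 of its 6795 exonic bases are shared with Gm49388 on the same strand. Kmt2e, whose protein MLL5 binds methylated H3K4 and has little known catalytic activity, was 86.6, 87.1 and 77.7 CPM with vehicle and 118.0, 120.5 and 130.2 CPM with FGF6 at 4 h (0.55 ± 0.05, adjusted p = 8.84e-11). Of the 8 tested COMPASS cofactors, 3 were higher (37.5%, against 28.6% of all genes) and 2 lower (25% against 34.2%) at 4 h. At 8 h, 6 were higher (75% against 32.4%) and 2 lower (25% against 38.4%). At 24 h, 6 were higher (75% against 35.9%) and none lower (against 37.9% of all genes). Wdr5, Rbbp5 and Ash2l, shared core subunits, were among those higher at every time. Dpy30, a further core subunit, was not called at 4 h (-0.05, adjusted p = 0.393) and was higher at 8 and 24 h (0.26 and 0.73, adjusted p = 4.45e-05 and 3.22e-13).

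The H3K4 demethylases changed less. Kdm1a, the flavin-dependent enzyme LSD1, which is known to be needed in brown fat, was higher at all 3 times (0.36 ± 0.04, 0.22 ± 0.04 and 0.39 ± 0.04, adjusted p = 9.51e-09, 1.15e-05 and 9.94e-10). At 24 h, it was 91, 88.9 and 94.4 CPM with vehicle and 116.7, 119.6 and 123.4 CPM with FGF6, with no overlap. Its relative Kdm1b was called at no time, with log2 fold changes of 0.06, -0.01 and -0.04 (adjusted p = 0.313, 0.873 and 0.474). Among the JmjC enzymes of the Kdm5 family, Kdm5c, the X-linked member, was lower at all 3 times, by at most 0.22 on the log2 scale. Kdm5a was lower at 8 and 24 h (-0.19 and -0.29, adjusted p = 9.95e-05 and 2.15e-07). Kdm5b was higher at 4 h (0.13, adjusted p = 0.0341), lower at 8 h (-0.25, adjusted p = 0.000204) and higher at 24 h (0.14, adjusted p = 0.0172). The 4 h call of Kdm5b was lost with library size alone (0.03, adjusted p = 0.632) and without vehicle library 3 (0.10, adjusted p = 0.155). The 24 h call was lost without FGF6 library 2 (0.08, adjusted p = 0.177), the highest of the group at 41.6 CPM. Rcor2, a subunit that joins LSD1 to deacetylases, had one of the large changes among the 20 listed subunits of HDAC complexes, with log2 fold changes of 0.19, 1.09 and 2.02 (adjusted p = 0.00832, 2.11e-14 and 9.36e-20).

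The demethylases of H3K9 were mostly lower at 8 h. Of the 6 tested genes, 5 were lower and none higher at that time (83.3% lower, against the 38.4% of all genes). Kdm4b, which removes trimethylation from H3K9 and H3K36, led them. At 8 h, it was 58.1, 58.2 and 57.4 CPM with vehicle and 35.3, 33.2 and 34.2 CPM with FGF6, and the groups lay far apart. Kdm4b had log2 fold changes of -0.42 ± 0.04, -0.76 ± 0.04 and -0.57 ± 0.04 at 4, 8 and 24 h (adjusted p = 6.54e-10, 7.78e-15 and 9.15e-13). Its relatives Kdm4a and Kdm4c were not called at 4 h (-0.06 and -0.14, adjusted p = 0.176 and 0.069). Both were lower at 8 h (-0.36 and -0.40, adjusted p = 3.37e-09 and 5.07e-06) and 24 h (-0.27 and -0.53, adjusted p = 3.54e-07 and 7.31e-08).

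Kdm3a, which encodes the H3K9 demethylase JMJD1A known to act in brown fat thermogenesis, dipped. At 8 h, it was 122.3, 123.5 and 118.6 CPM with vehicle and 88.8, 88.9 and 93.1 CPM with FGF6 (-0.43 ± 0.05, adjusted p = 3.37e-08). At 24 h it was 143.1, 137.1 and 141.7 CPM with vehicle and 173.9, 163.1 and 145.4 CPM with FGF6 (0.19 ± 0.05, adjusted p = 0.000978). The effects at 8 and 24 h differed by 0.62 ± 0.07 (adjusted p = 6.5e-08). Its relative Kdm3b shares 3468 of its 14095 exonic bases with Gm26538 on the opposite strand. Kdm3b was lower at each time by at most 0.26 on the log2 scale, and overlapped between groups at 4 h. Jmjd1c, a further gene of that family that the naming rule did not take, was higher at all 3 times (0.64, 0.70 and 1.12, adjusted p = 1.48e-14, 1.35e-15 and 5.04e-20). Kdm7a, which acts on H3K9 and H3K27, was higher at 4 and 24 h and not at 8 h. At 4 h, it was 39.9, 41.8 and 38.1 CPM with vehicle and 53.8, 53.3 and 58.5 CPM with FGF6 (0.46 ± 0.05, adjusted p = 2.25e-08). Its vehicle mean fell from 39.9 to 22.1 CPM between 4 and 8 h (-0.85 ± 0.06, adjusted p = 5.91e-12).

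The H3K36 demethylases changed little. Kdm2a was higher at 4 h by 0.10 on the log2 scale (adjusted p = 0.00316), and Kdm2b was called at no time. Kdm8, first described as an H3K36 demethylase and also known as a protein hydroxylase, was higher at all 3 times. At 8 h it was 10.1, 10.9 and 10.8 CPM with vehicle and 14.3, 14.3 and 16.2 CPM with FGF6 (0.49 ± 0.08, adjusted p = 2.53e-06). Setd2, the enzyme that trimethylates H3K36 in transcribed genes, was lower at 8 h only by this test (-0.17, adjusted p = 0.000358).

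Setd6, a methyltransferase of non-histone proteins such as the NF-kappaB subunit RelA, was among the genes with the largest increases at each time. At 4 h, it was 27.4, 27.6 and 29.4 CPM with vehicle and 42.8, 42.6 and 42 CPM with FGF6. It was 25.1, 24 and 22.5 CPM against 48.3, 47.9 and 45.8 CPM at 8 h, and 15.3, 14.2 and 14 CPM against 27.4, 26.4 and 27.5 CPM at 24 h. The FGF6 libraries lay above the vehicle libraries at each time, while both arms were lower at 24 h than at 4 h. The log2 fold changes were 0.59 ± 0.05, 0.99 ± 0.05 and 0.90 ± 0.05 (adjusted p = 5.55e-11, 1.53e-15 and 1.01e-13). Setd4, a less studied gene of the family was 5.46, 5.69 and 6.71 CPM with vehicle and 9.34, 9.38 and 8.59 CPM with FGF6 at 8 h. At 24 h, Setd4 was 4.03, 3.44 and 3.74 CPM against 6.64, 6.22 and 5.73 CPM. It was higher at all 3 times, with log2 fold changes of 0.37 ± 0.10, 0.62 ± 0.10 and 0.73 ± 0.12 (adjusted p = 0.00244, 7.01e-06 and 3.87e-06). Setd3, the methyltransferase of a histidine of actin, rose by 0.18, 0.25 and 0.41 on the log2 scale (adjusted p = 0.000561, 8.9e-06 and 3.58e-09).

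Setd7, which monomethylates H3K4 and several transcription factors, moved in the other direction. At 4 h, it was 99.1, 93.8 and 97.6 CPM with vehicle and 60.1, 51.9 and 55.3 CPM with FGF6, and no libraries overlapped. The log2 fold changes of Setd7 were -0.80 ± 0.04, -0.54 ± 0.04 and -0.32 ± 0.04 at 4, 8 and 24 h (adjusted p = 1.76e-14, 1.18e-11 and 7.53e-08). Setd5, a large SET protein found with deacetylase complexes, had changes of at most 0.18 on the log2 scale. It was higher at 4 h (0.09, adjusted p = 0.0292), a direction that flipped to -0.01 (adjusted p = 0.787) with library size alone, and lower at 8 h (-0.18, adjusted p = 9.01e-05) and 24 h (-0.10, adjusted p = 0.0142). The 4 h call was also lost without vehicle library 3 (0.06, adjusted p = 0.188). The 24 h call was lost without any 1 of vehicle libraries 1, 2 and 3 (-0.08, -0.05 and -0.05, adjusted p = 0.0891, 0.278 and 0.295) and FGF6 libraries 1 and 3 (-0.07 and -0.05, adjusted p = 0.141 and 0.301).

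The promoters of Setd6 and Setd7 are given because these members of a family moved in opposite directions at all 3 times. They lie at chr8:95715663-95715942, plus strand, and at chr3:51560794-51561073, minus strand (GRCm38.p6, RefSeq). Neither held a motif searched, so no base is in capitals.
Setd6: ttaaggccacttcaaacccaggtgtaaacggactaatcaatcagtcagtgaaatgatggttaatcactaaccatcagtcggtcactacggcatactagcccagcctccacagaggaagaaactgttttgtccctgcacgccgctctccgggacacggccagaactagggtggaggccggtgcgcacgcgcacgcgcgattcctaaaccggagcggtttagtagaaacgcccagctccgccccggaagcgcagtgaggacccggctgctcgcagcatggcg
Setd7: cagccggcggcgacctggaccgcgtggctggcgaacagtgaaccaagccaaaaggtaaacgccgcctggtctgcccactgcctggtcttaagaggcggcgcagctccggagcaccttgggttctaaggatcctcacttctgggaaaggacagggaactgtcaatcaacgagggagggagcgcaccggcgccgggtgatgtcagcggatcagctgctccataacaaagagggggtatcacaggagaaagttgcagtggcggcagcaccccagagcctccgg

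The methyltransferases of H4K20 also parted. Kmt5a, which encodes SET8, the enzyme of H4K20 monomethylation known for its role in chromosome condensation and replication, was 130.6, 118.1 and 123.8 CPM with vehicle and 218.8, 224.3 and 218.2 CPM with FGF6 at 24 h. At 4 h, the values were 141.7, 140.7 and 134.2 CPM against 184.5, 185.8 and 192.8 CPM, and at 8 h 129.2, 112.4 and 120.5 CPM against 200.1, 197.6 and 188.3 CPM. For Kmt5a, the log2 fold changes were 0.43 ± 0.04, 0.69 ± 0.04 and 0.83 ± 0.04 at 4, 8 and 24 h (adjusted p = 2.31e-09, 1.95e-13 and 3.94e-15), without overlap. Of the 20 cell cycle genes, 5 were higher and 12 lower at 4 h, and 15 higher and 2 lower at 24 h. Whether the change of Kmt5a was tied to theirs was not tested. Kmt5c, which carries H4K20 to the di- and trimethylated forms, was lower at all 3 times. At 24 h, it was 25.4, 22.5 and 21.7 CPM with vehicle and 16.3, 15.2 and 15.6 CPM with FGF6, and its log2 fold changes were -0.46, -0.33 and -0.56 (adjusted p = 2.09e-07, 1.32e-05 and 1.64e-08). Kmt5b, which shares the function of Kmt5c, was higher at 4 and 24 h (0.15 and 0.18, adjusted p = 0.0037 and 0.000781). The ratio of Kmt5a to Kmt5c per kb at 24 h was 4.05 ± 0.224 (SD, n = 3) with vehicle and 10.6 ± 0.509 (SD, n = 3) with FGF6.

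**Figure D3:**
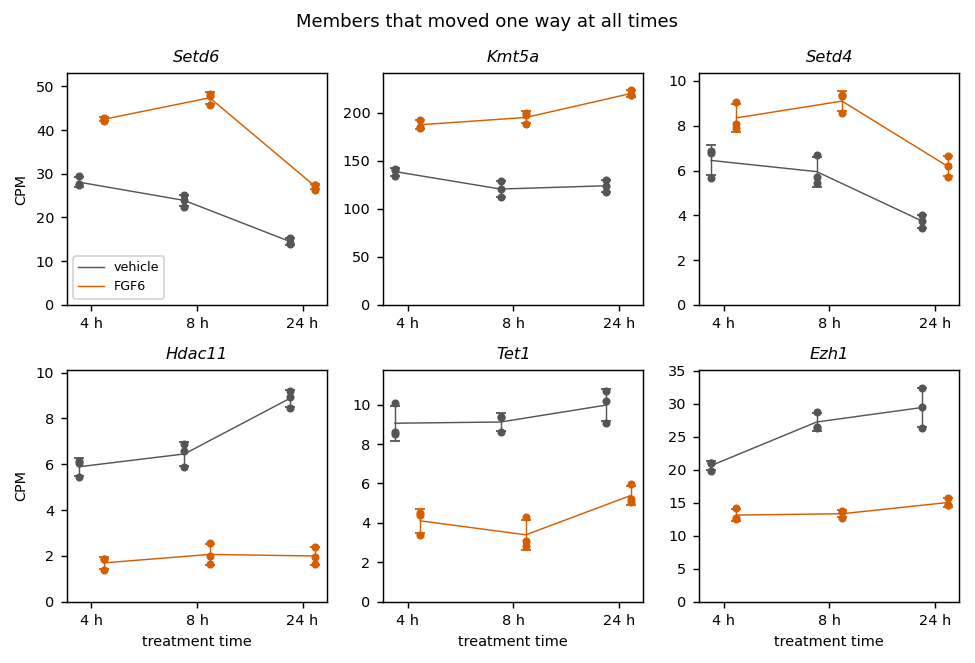
CPM (y axis) of 6 genes that moved one way at all treatment times (x axis, 4, 8 and 24 h), with a point for each library and the mean ± SD of 3 libraries for vehicle (grey) and FGF6 (orange). Setd6, Kmt5a and Setd4 lie above the vehicle libraries and Hdac11, Tet1 and Ezh1 below them at each time. There is no overlap, which was part of the rule by which these genes were named.

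Of the 11 deacetylase genes, Hdac11 showed the largest change. Hdac11, the only class IV enzyme and known to restrain brown fat thermogenesis, was 6.06, 6.15 and 5.44 CPM with vehicle and 1.85, 1.85 and 1.38 CPM with FGF6 at 4 h. The 8 h libraries held 5.87, 6.9 and 6.57 CPM against 1.66, 1.98 and 2.55 CPM, and at 24 h 8.48, 9.2 and 8.96 CPM against 1.93, 1.64 and 2.39 CPM. Every FGF6 library held less than any vehicle library, and the gap was widest at 24 h. The log2 fold changes were -1.78 ± 0.15, -1.66 ± 0.15 and -2.16 ± 0.14 (adjusted p = 1.55e-10, 1.77e-10 and 5.25e-13). Of its 3849 exonic bases, 690 are shared with Gm14573 or Gm44002 on the opposite strand.

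The Hdac11 promoter, shown as that of the gene with the largest decrease at all 3 times, lies at chr6:91156565-91156844, plus strand (GRCm38.p6, RefSeq), with 22 CG dinucleotides in the 300 bases searched and no match to a motif searched.
Hdac11: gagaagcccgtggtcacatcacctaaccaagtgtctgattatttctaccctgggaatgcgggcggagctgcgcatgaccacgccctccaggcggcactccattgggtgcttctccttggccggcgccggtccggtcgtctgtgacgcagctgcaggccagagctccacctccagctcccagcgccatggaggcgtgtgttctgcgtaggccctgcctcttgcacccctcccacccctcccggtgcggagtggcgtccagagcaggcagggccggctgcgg
The other motifs searched, on both strands, were the cAMP response element TGACGTCA and its core TGACGTNN, the AP-1 site TGANTCA and the E-box CACGTG. The full element lies within its core, and the hypoxia core lies within the E-box. The 43 enzyme genes with a RefSeq window had 63 windows. None held the full cAMP response element (1.79% of all windows and 2.97% of the windows of tested genes). Its core was in 5 of the 63 (7.49% and 11.1%) and an AP-1 site in 6 (7.81% and 5.43%). The E-box was in 5 (7.15% and 9.77%) and the hypoxia core in 12 (19.6% and 24.8%).

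Class IIb held a pair that parted. Hdac6, the cytoplasmic deacetylase of tubulin, was 84.2, 84.7 and 83.2 CPM with vehicle and 144.0, 143.3 and 143.3 CPM with FGF6 at 24 h. The log2 fold changes of Hdac6 were 0.26 ± 0.03, 0.41 ± 0.03 and 0.77 ± 0.03 (adjusted p = 3.29e-07, 8.76e-11 and 1.48e-16). Hdac10, a polyamine deacetylase, was lower at all 3 times, and at 24 h it was 18.5, 20.7 and 18.4 CPM with vehicle and 11, 9.04 and 9.1 CPM with FGF6. Its log2 fold changes were -0.49 ± 0.07, -0.57 ± 0.07 and -0.98 ± 0.08 (adjusted p = 5.87e-07, 3.11e-08 and 1.43e-11). The ratio of Hdac6 to Hdac10 per kb at 24 h was 2.55 ± 0.151 (SD, n = 3) with vehicle and 8.65 ± 0.917 (SD, n = 3) with FGF6.

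Class I was divided as well. Its members Hdac1 and Hdac2 act in the Sin3, NuRD and CoREST complexes and Hdac3 in the NCoR complex, while Hdac8 is part of none of these. Hdac2 was higher at all 3 times and reached 279.8, 275.5 and 275.3 CPM with FGF6 at 24 h against 186.6, 186.1 and 191.6 CPM with vehicle (0.56 ± 0.03, adjusted p = 5.84e-14). Hdac8, which deacetylates cohesin, was lower at all 3 times, and at 4 h it was 9.63, 10.3 and 11.3 CPM with vehicle and 7.28, 6.25 and 7.03 CPM with FGF6 (-0.61 ± 0.09, adjusted p = 2.2e-06). Hdac1, the close relative of Hdac2, was lower at 4 and 8 h (-0.19 and -0.27, adjusted p = 0.00252 and 5.93e-05) and higher at 24 h (0.13, adjusted p = 0.0246). The increase of Hdac1 at 24 h was small, from 40.4, 38.1 and 43 CPM to 44.8, 44.2 and 43.7 CPM, and was not called without the filter on low counts (0.12, adjusted p = 0.0589). Hdac3, the catalytic subunit of the NCoR complex, known to prime brown fat for thermogenesis, was not called at 4 and 8 h (-0.00 and -0.01, adjusted p = 0.974 and 0.715) and was higher at 24 h by 0.12 on the log2 scale (adjusted p = 0.00281).

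Class IIa, the signal-dependent repressors that shuttle between nucleus and cytoplasm and bind MEF2 factors, also split. Hdac5 and Hdac7 were lower at all 3 times. At 8 h, Hdac5 was 131.5, 128.5 and 118.0 CPM with vehicle and 80.1, 81.4 and 71.6 CPM with FGF6 (-0.70 ± 0.05, adjusted p = 1.09e-11). At 24 h, Hdac7 was 141.2, 128.9 and 124.2 CPM with vehicle and 74.8, 72.6 and 76 CPM with FGF6 (-0.82 ± 0.04, adjusted p = 8.82e-15), and its effect differed from that at 4 h by -0.64 ± 0.06 (adjusted p = 2.52e-09). Hdac4 was not called at 4 h (0.03, adjusted p = 0.63) and was higher at 8 and 24 h (0.40 at both, adjusted p = 7.67e-07 and 6.01e-07). It shares 3536 of its 15813 exonic bases with Gm26720 on the opposite strand. Hdac9 had few counts in all libraries, from 0 to 11. It was called lower at 4 h only by this test, at 0.357, 0.247 and 0.234 CPM with vehicle and 0.037, 0.0319 and 0.203 CPM with FGF6 (adjusted p = 0.0386), and no fold is given at these counts. At 24 h, 4 of the 7 sirtuins, the deacetylases that use NAD, were lower (57.1%, against 37.9% of all genes). A further 1 was higher (14.3% against 35.9%). Sirt2, Sirt4 and Sirt5 were lower at every time.

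**Figure D4:**
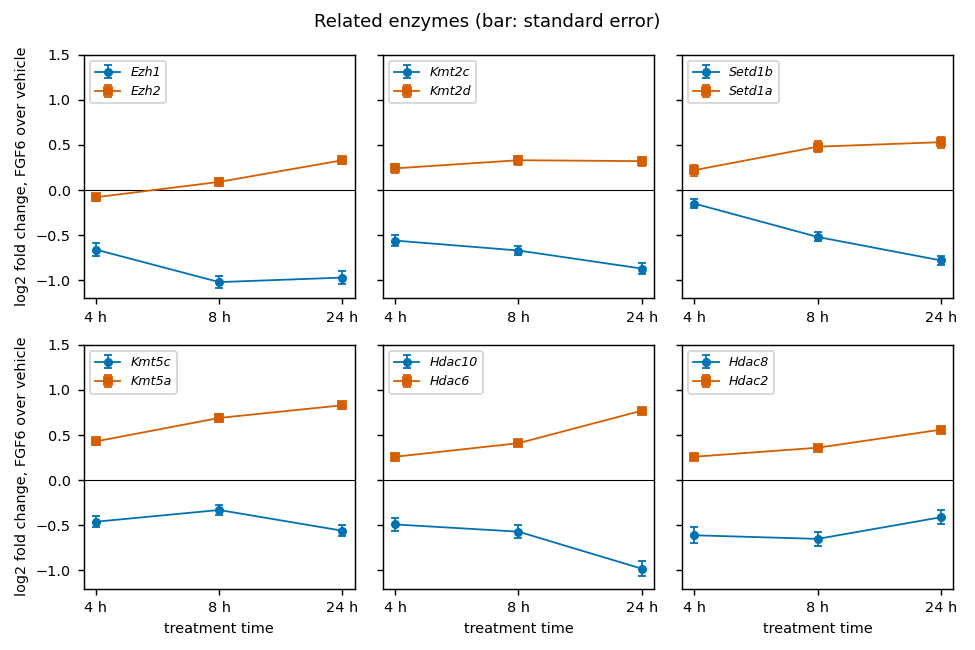
Log2 fold change of FGF6 over vehicle (y axis, bars are standard errors) at 4, 8 and 24 h (x axis) for 6 pairs of related enzymes, chosen after their values were seen. In each pair the gene in blue is below 0 at every time, and the gene in orange is above 0 at every time except for Ezh2 at 4 h (-0.08, not called).

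Tested over time, the effect of FGF6 differed between 4 and 8 h for 24 of the 52 genes (46.2%, against 30.6% of all genes tested), between 8 and 24 h for 27 (51.9% against 45.1%) and between 4 and 24 h for 31 (59.6% against 53.5%). From 4 to 8 h, 16 of the 24 differences were downward and 8 upward, and from 8 to 24 h, 9 of the 27 were downward and 18 upward. Over all genes, 50.6% and 50.2% of the called differences were upward in these comparisons. Of all genes with at least 10 counts in every library, 18.2% differed upward and 18.4% downward between 4 and 8 h. Those shares were 24.1% and 27.8% between 8 and 24 h, and 29.9% and 29.6% between 4 and 24 h. These comparisons share libraries and are not independent of one another. The vehicle-treated cells moved over the same time as well. With vehicle alone, 31 genes differed between 4 and 8 h (59.6% against 43.0%), 31 between 8 and 24 h (59.6% against 49.2%) and 34 between 4 and 24 h (65.4% against 60.8%). Of all genes with at least 10 counts in every library, 26% were higher and 25.7% lower in vehicle at 8 h than at 4 h. Between 8 and 24 h the shares were 28.5% and 29%, and between 4 and 24 h 34.6% and 34.8%. In vehicle from 4 to 24 h, Dnmt3l, Dnmt3b, Setd6, Kdm7a and Setd4 had the largest decreases, from -2.58 to -0.79 on the log2 scale, and Hdac8, Hdac5, Hdac11, Setd7 and Ezh1 the largest increases, from 0.80 to 0.51. All 5 of these increasing genes were lower with FGF6 than with vehicle at each time, as were 26.9% of the enzyme genes tested and 23% of all genes. The vehicle libraries at 4 and 24 h enter both the increase and the effects of FGF6. The increase and the effects are thus not independent, and no conclusion is drawn. Time in culture and time of treatment cannot be told apart here.

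In level per kb of exons, the genes spanned a wide range. With vehicle at 4 h, Dnmt1 (54.3 CPM per kb), Hdac2 (46) and Kdm5c (33.7) were the highest, and of the genes tested, Hdac9 (0.019), Tet1 (0.586), Setd4 (1.2) and Dnmt3b (1.42) were the lowest. Within the H3K27 pairs, Ezh2 stood at 13.5 CPM per kb and Ezh1 at 2.77, and Kdm6a at 7.68 and Kdm6b at 6.07. With FGF6 at 4 h, Kdm6b stood at 13.8 and Kdm6a at 6.6. The ratio of Kdm6a to Kdm6b at 4 h was 1.27 ± 0.103 (SD, n = 3) with vehicle and 0.478 ± 0.0307 (SD, n = 3) with FGF6, and at 24 h it was 1.19 ± 0.0502 and 1.6 ± 0.0887. The order of the 2 demethylases thus turned at 4 h and turned back by 24 h.

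Counts for enzymes of other families, outside the naming rule, are given beside the shares of all genes, which at 4, 8 and 24 h were 28.6%, 32.4% and 35.9% higher and 34.2%, 38.4% and 37.9% lower. Of the 8 tested arginine methyltransferases, 5, 6 and 6 were higher (62.5%, 75% and 75%) and 1 was lower each time, with median log2 fold changes of 0.28, 0.57 and 0.56. Prmt5, the main enzyme of symmetric arginine dimethylation, had log2 fold changes of 0.31, 0.79 and 1.07 (adjusted p = 1.49e-08, 1.78e-16 and 3.1e-19). Of the 17 other lysine methyltransferases, 9, 8 and 10 were higher (52.9%, 47.1% and 58.8%) and 6, 5 and 4 lower. Suv39h1 and Suv39h2, which trimethylate H3K9, were higher at all 3 times, at 0.74 and 0.94 on the log2 scale at 24 h (adjusted p = 1.09e-15 and 1.4e-12). Dot1l, the H3K79 methyltransferase, was higher at 4 and 8 h (0.50 and 0.38, adjusted p = 8.62e-12 and 1.22e-09), with a value of 0.01 at 24 h (adjusted p = 0.897). Of the 9 tested other JmjC proteins, 6, 5 and 5 were higher (66.7%, 55.6% and 55.6%) and 1 lower each time. The 12 acetyltransferases, which work against the deacetylases, had 3, 3 and 5 higher (25%, 25% and 41.7%) and 5, 6 and 4 lower (41.7%, 50% and 33.3%), near the shares of all genes. Kat2b, 1 of them, was lower at all 3 times (-1.05, -1.27 and -1.17, adjusted p = 5.41e-13, 2.16e-15 and 8.71e-15). Of the 20 subunits of HDAC complexes, 9, 10 and 11 were higher (45%, 50% and 55%) and 7, 5 and 3 lower (35%, 25% and 15%).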

How the data were processed

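RNA-seq of 18 libraries was analysed from a table of counts per gene that the authors deposited without normalization. Per the labels and the study's methods, the authors aligned reads to GRCm38 (GENCODE) with STAR and counted them with featureCounts of Subread. Tool versions, annotation release, strand setting and the handling of multi-mapped reads are not given in the sources used here. Groups came from the sample titles, and all 18 columns were matched. Symbols, positions and exon lengths came from GENCODE M21 (GRCm38), which held 98.5% of identifiers, and promoters from RefSeq (GRCm38.p6), which had windows for 43 of the 55 genes.

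Genes were kept by filterByExpr (15071 of 48023), and edgeR 4.0.16 in R 4.3.3 fitted its quasi-likelihood model with TMM factors to the 6 group means, without covariates. Adjusted p-values (Benjamini-Hochberg) are over all genes tested, with calls made under 0.05 (the study's methods use 0.25). Standard errors are those implied by the F statistic. The smallest p of an exact permutation test is 0.1 at this group size, so none was used. Gene lists, pairs and enzymes were chosen with earlier results of these data known. Values are given in full for the 6 largest increases and decreases per time (called, at least 1 CPM, no overlap), for genes called in opposite directions, and for the 5 largest differences of effects between 4 and 24 h. Single values of other genes were added where a class needed them. Sets of related genes and 6 promoters were picked after values were seen.

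Alternatives were limma 3.58.1 with voom, DESeq2 1.42.0, library size only, upper-quartile factors, no filter, a minimum of 10 counts per library, a fit restricted to the times compared, a replicate block, an FDR of 0.25, and leaving out each library. Total counts were 24327816 to 33471980 per library.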

Additional observations from a re-analysis of the deposited data

Results flagged for a closer look

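The effect of FGF6 differed between time points for 11 genes singled out by the size of that difference or by calls in opposite directions. Only differences called by edgeR's test of the difference itself were kept, so the adjusted p-values below were part of the choice and no separate support. From 4 to 24 h, the log2 difference of effects was 2.88 for Dnmt3l (adjusted p = 5.72e-09), -1.57 for Kdm6b (3.28e-15), -1.31 for Dnmt3a (1.28e-10), -0.64 for Hdac7 (2.52e-09), -0.64 for Setd1b (7.58e-08) and -0.52 for Tet2 (1.53e-05). From 8 to 24 h it was 0.62 for Kdm3a (6.5e-08), -0.49 for Tet3 (5.35e-07), 0.40 for Hdac1 (7.21e-05) and 0.39 for Kdm5b (0.000116), and from 4 to 8 h it was -0.27 for Setd5 (0.0002). For Hdac7 and Setd1b the effect was downward at both times, and for the other 9 it changed sign. Some of the calls behind these signs (Hdac1, Kdm5b, Setd5, Tet2 and Tet3) were lost under alternatives described with the results. The value of Setd5 at 4 h reversed with library size only. Single values were not tested for outlying libraries, as groups of 3 are too small for that test. Vehicle library 3 at 24 h, which stood apart over all genes, is described with the results.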

How the results depend on the processing

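The counts of called genes stayed within 1.5 times of the reported ones under each alternative except 1. With library size only, 13 genes were higher with FGF6 at 4 h in place of 23, and Setd5 at 4 h reversed to -0.01, while 25 were lower in place of 18. Without any 1 library, 21 to 24 genes were higher and 14 to 18 lower at 4 h, 16 to 19 and 24 to 25 at 8 h, and 20 to 23 and 19 to 22 at 24 h. At an FDR of 0.25, the study's threshold, 24 were higher and 21 lower at 4 h, 20 and 27 at 8 h, and 22 and 23 at 24 h. Of the 60 single values followed, all kept their direction and their call with limma and voom, DESeq2, the replicate block, the stricter filter and only the libraries of the times compared. With library size only, 1 reversed and 3 lost their call (Dnmt3b 0.27, Kdm5b 0.03 and Tet2 0.10, at 4 h), with upper-quartile factors 2 lost it (Kdm5b 0.08 and Setd5 0.03 at 4 h), and without a filter 3 (Kdm5b 0.14 at 4 h and 0.13 at 24 h, Hdac1 0.12 at 24 h). The cause was not tested. Calls lost without 1 library (Dnmt3b, Kdm5b, Setd5 and Tet3) stand beside their values above. With the replicate number as a block, 23 genes were higher and 18 lower at 4 h, 17 and 24 at 8 h, and 22 and 22 at 24 h. Same-numbered vehicle and FGF6 libraries of a time had deviations from their group means that correlated at -0.0275 to 0.0486 across genes. Differently numbered ones spanned -0.0446 to 0.0489. Whether same-numbered libraries were handled together is not given in the sources used here. These values, taken from groups of 3, cannot decide it. Hdac9 and the 3 untested genes, Kdm4d, Dnmt3c and Kdm5d, had few counts, at most 11, 12, 3 and 1 in any library. The reason was not tested.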
